A study of Mus musculus with 24 samples.

Results

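Baf180, the product of Pbrm1, is the polybromo subunit that marks PBAF, a member of the SWI/SNF family of chromatin remodelling complexes. Baf180 knockdown (KD) mouse myoblasts kept in copper (Cu) were compared with scrambled-shRNA control (scr) myoblasts also kept in Cu, 2 libraries against 2, and the same KD against scr contrast was taken without added metal, again 2 against 2. The question was which stress genes differed between KD and scr with Cu but not without metal, and the reverse. The 4 Cu libraries were chosen by their titles and column names from the 24 libraries of the series, and the 4 libraries without metal share none with them. Stress genes were 485 of the 55291 genes in the table, placed in 15 lists by function.

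RNA from each culture was sequenced after removal of ribosomal RNA, and the deposited values are counts of uniquely aligned reads per gene. The groups were KD in 100 µM CuSO4, scr in 100 µM CuSO4, KD without added metal and scr without added metal, all for 48 h, with 2 replicates each. Dose and culture come from the study's methods, which name C2C12, an immortalized mouse myoblast line, as lentivirally transduced and puromycin-selected cells, whereas the sample labels speak of primary myoblasts. Each KD group is a selected population carrying an shRNA against Baf180 whose identity of the available pair is not given in the sources used here, and the scr cells went through the same transduction and selection. The treatment tag in the labels disagreed with the title for 4 of these 8 libraries, so groups follow the titles, which the count columns share.

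SWI/SNF complexes use ATP to move or evict nucleosomes and so open chromatin to transcription factors. PBAF differs from the other family members by Baf180, Arid2, Brd7 and Phf10, and Baf180 binds acetylated histone tails through its bromodomains. Cells meet excess Cu with metallothioneins, small cysteine-rich proteins that bind Cu and zinc and whose genes are switched on by the zinc-finger factor MTF1 at metal response elements. Further layers are the Cu chaperones and exporters, the NRF2 programme of detoxification and glutathione synthesis, and the chaperone, DNA repair and translation-control pathways that answer oxidised or misfolded protein. In myoblasts, Cu is also needed for mitochondrial respiration.

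The 2 shRNAs of the study against Baf180 are shown because the KD contrast rests on their target in Pbrm1 (chr14:31019138-31121592, plus strand, GRCm38). The target of shRNA1 lay in the 3' UTR in exon 31 of 31 at chr14:31119323-31119343 and was present in 4 of 17 annotated Pbrm1 transcripts. The target of shRNA2 crossed a splice junction in the coding sequence, from exon 7 (chr14:31036057-31036059) into exon 8 (chr14:31038933-31038950), and was present in 13 of 17 transcripts. Both are given 5′ to 3′ on the sense strand.
shRNA1: tgtgaagttggtcctagttta
shRNA2: gtgcaatatccagactattat

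The 250 bases before the annotated start of 4 metal-handling genes are shown because these genes carry the main metal results below, the metallothioneins Mt1 and Mt2 as genes higher in KD in both media, and the transporters Slc30a4 and Atp7a as genes lower in KD in Cu. Capitals mark the metal response element core, searched as TGCACNC or TGCGCNC on both strands. The sequences are from RefSeq (GRCm38.p6), and 21.4% of 32817 such windows of all genes held the core. It occurred once in the Mt1 window (chr8:94178839-94179088, plus strand), 3 times in that of Mt2 (chr8:94172368-94172617, plus strand), and 2 times each in those of Slc30a4 (chr2:122702664-122702913, minus strand) and Atp7a (chrX:106026974-106027223, plus strand). A match describes letters and is not a measured binding site. Elements outside these 250 bases, including any after the annotated start, were not searched.
Mt1: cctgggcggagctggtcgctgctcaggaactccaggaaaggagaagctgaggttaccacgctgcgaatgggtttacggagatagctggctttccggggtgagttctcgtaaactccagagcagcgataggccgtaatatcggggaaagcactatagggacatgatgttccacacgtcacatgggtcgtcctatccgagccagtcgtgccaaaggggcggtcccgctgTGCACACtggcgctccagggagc
Mt2: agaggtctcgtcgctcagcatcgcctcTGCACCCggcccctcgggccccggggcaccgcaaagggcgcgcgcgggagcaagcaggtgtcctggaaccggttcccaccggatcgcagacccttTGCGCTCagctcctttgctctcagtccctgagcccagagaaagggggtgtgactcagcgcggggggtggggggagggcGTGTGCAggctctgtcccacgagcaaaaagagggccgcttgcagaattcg
Slc30a4: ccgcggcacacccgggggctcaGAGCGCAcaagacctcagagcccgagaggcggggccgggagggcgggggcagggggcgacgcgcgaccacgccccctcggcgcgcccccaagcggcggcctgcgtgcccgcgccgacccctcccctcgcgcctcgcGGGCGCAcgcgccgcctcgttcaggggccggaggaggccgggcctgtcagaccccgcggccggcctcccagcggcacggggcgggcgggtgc
Atp7a: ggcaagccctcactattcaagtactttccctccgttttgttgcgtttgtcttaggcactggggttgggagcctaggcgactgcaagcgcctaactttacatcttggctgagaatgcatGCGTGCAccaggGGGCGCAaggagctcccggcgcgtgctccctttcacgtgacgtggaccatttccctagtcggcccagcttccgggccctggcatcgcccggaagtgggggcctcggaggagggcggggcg

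The 8 libraries held 16520069 to 44746359 counts and 20114 to 23789 genes with a count. Levels are given below as CPM, that is counts scaled to a common library size, scaled by TMM over the 8 libraries, and differences as log2 fold changes (KD against scr) with the standard error (SE) of edgeR's quasi-likelihood fit, where a Benjamini-Hochberg adjusted p under 0.05 made a call. The 5 rRNA-linked features summed to 17482 to 48654 CPM in scr without metal and to 1388 to 7916 CPM in the other 6 libraries. Lars2, a gene of that list named after its values were seen, was called in the contrast without metal (−2.97 ± 0.48) and not in Cu (0.03 ± 0.14). The part of this difference in the results without metal was not tested. Fold changes also moved with the GC content of transcripts, in opposite ways in the 2 contrasts (below).

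Pbrm1 was reduced in both media. In Cu it stood at 40.9 and 54.6 CPM in the KD replicates and at 123 and 170 CPM in scr, and without metal at 64.2 and 76.4 CPM against 139 and 96.5 CPM. KD and scr did not overlap in either medium. The log2 fold change was −1.61 ± 0.18 in Cu (adjusted p = 8.86e-05) and −0.76 ± 0.16 without metal (adjusted p = 0.00274). As bulk RNA was measured, fewer expressing cells and less RNA per cell cannot be told apart. Among the other PBAF subunits, Phf10, a PHD-finger protein, was lower in both media (73.0 and 74.2 CPM in KD against 140 and 130 CPM in scr in Cu, −0.87 ± 0.12, and −0.48 ± 0.11 without metal). Arid2, the DNA-binding subunit, was called higher without metal (0.52 ± 0.10) and gave 0.10 ± 0.12 in Cu, while Brd7, a bromodomain subunit, gave −0.32 ± 0.13 in Cu and −0.19 ± 0.11 without metal and was called in neither. The difference of Pbrm1 between the media was −0.87 ± 0.29 and was not called (adjusted p = 0.120). With the GC content and length offset described below, Pbrm1 gave −1.43 in Cu and −1.26 without metal, a difference of −0.18 (adjusted p = 0.613). Brd7 was then lower in both media (adjusted p = 0.0306 and 0.0471), and the calls of the other 3 subunits held.

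In Cu, 3818 of 15342 genes tested were called (24.9%), 2183 higher (14.2%) and 1635 lower (10.7%) in KD. Without metal, 6087 of 14851 were called (41.0%), 3217 higher (21.7%) and 2870 lower (19.3%). Of the 466 stress genes tested in both contrasts, 56 were higher and 51 lower in both media (11.1% and 6.21% of all 14660 genes tested in both). In opposite directions 6 were called (0.580% of all genes), and 167 were called in neither (7525 of all 14660 genes). A further 46 were called in Cu and not without metal (24 higher, 22 lower), which is 9.87% against 7.56% of all genes (3.28% higher, 4.28% lower). The reverse held for 140 (40 higher, 100 lower), 30.0% against 23.2% of all genes (10.1% higher, 13.1% lower). The Cu count rests heavily on the KD replicates: it was 8 without KD replicate 1, 16 without KD replicate 2 and 78 without scr replicate 1 in Cu, and the count of 140 was 59 without KD replicate 2 without metal. Over all genes, leaving out KD replicate 1 or 2 gave 1727 and 1902 calls in Cu, and leaving out KD replicate 1 or 2 without metal gave 3987 and 3025 calls there.

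**Figure D1:**
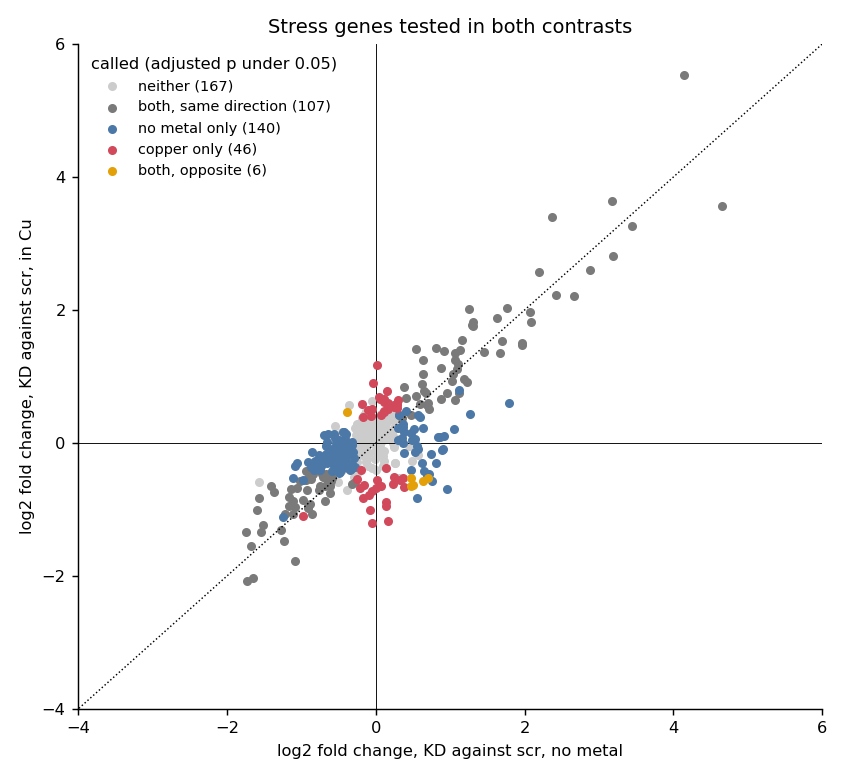
Log2 fold change of KD against scr without metal (x axis) and in Cu (y axis) for the 466 stress genes tested in both contrasts, coloured by where the adjusted p was under 0.05, with the dotted line at equality. The 107 genes called in the same direction in both media run along the line, while the 46 genes called in Cu but not without metal and the 140 genes of the reverse class scatter on either side of it, some of them (Gsta2, Bmf) close to it.

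A call in one medium and none in the other does not show that the KD difference changed with Cu. That difference, tested as an interaction over the 8 libraries, was called for 0 of 15479 genes by edgeR (0%), with a smallest adjusted p of 0.0748 and 3685 genes at an unadjusted p under 0.05 (23.8%). DESeq2 on the same libraries called 1290 genes (8.33%), and a fit that took its spread from all 24 libraries called 2116 of 16524 (12.8%). Leaving out scr replicate 1 in Cu gave 1604 calls and leaving out scr replicate 1 without metal 1323, while leaving out any other replicate gave at most 2. Of the 46 stress genes called in Cu and not without metal, 31 had an unadjusted interaction p under 0.05 (67.4%, beside 63.6% of all 1109 genes of that class), 24 were called by DESeq2 and 28 in the fit of 24 libraries. For the 140 of the reverse class these counts were 61 (43.6%, beside 49.0% of all 3399 genes of that class), 26 and 39. Over all genes, DESeq2 called 341 of the 1109 and the fit of 24 libraries 477. For the 3399 of the reverse class they called 666 and 1058. The shares at an unadjusted p under 0.05 lay near those of all genes, as did both fits' shares of the 140. For the 46, the shares called by DESeq2 and by the fit of 24 libraries lay above those of all genes. The classes were drawn from the same contrasts that the interaction compares, so these shares are a description. In the 46, the fold change without metal had the sign of that in Cu for 28 genes (60.9%, beside 66.0% of all genes of the class), and in the 140 the fold change in Cu had the sign of that without metal for 109 (77.9%, beside 67.7%).

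GC content separated these classes. Stress genes higher in Cu and not called without metal had a median transcript GC content of 54.4%, and those lower had 42.7%. Without metal the order was turned, with 43.3% in the genes called higher and 52.2% in those called lower, beside 49.3% over all genes tested in both. Across protein-coding genes the fold change correlated with GC content at a Spearman rho of 0.27 in Cu (12355 genes), −0.29 without metal (12194 genes) and 0.61 for their difference (12429 genes), a description over genes that share the same libraries. Replicates of 1 group also differed in their GC trend: per 10 points of GC, log2 CPM moved by 0.114 and −0.208 in scr replicates 1 and 2 in Cu, and by 0.185 and 0.00970 in KD in Cu. Without metal it moved by 0.0104 and 0.2335 in scr and by −0.1002 and −0.2448 in KD. There both KD libraries lay below both scr libraries, whereas in Cu the groups overlapped. With an offset that removes each library's trend with GC content and length, 20 of the 46 and 75 of the 140 genes stayed in their class (43.5% and 53.6%, beside 39.7% and 52.7% of all genes of these classes, with 33 and 109 stress genes in them in all), none of the 6 opposite calls remained, and 4330 genes in Cu (28.2%) and 6374 without metal (42.9%) were called. The offset also moved the split of calls, to 2093 higher and 2237 lower in Cu and to 2810 higher and 3564 lower without metal. For each list below it is said which named genes kept their class with the offset. The list shares below are those without it unless stated. With it, 19.9% of all genes were called without metal and not in Cu. That share was then 36.7% for the unfolded protein response, 33.3% for heat shock, 31.2% for copper handling and 26.5% for antioxidant enzymes. It was 26.3% for metallothionein and zinc transport, 25.8% for iron and heme, 25.7% for hypoxia and 23.4% for DNA damage response genes. The integrated stress response had 22%, protein lipoylation 21.4%, apoptosis 20.7% and autophagy and lysosome genes 20%. Lowest were the NRF2 pathway (15.8%), the p53 pathway (12.1%) and immediate early genes (10.8%). Without the offset, counts called alike in both media stand beside 11.1% higher and 6.21% lower of all genes, and opposite calls beside 0.580%.

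**Figure D2:**
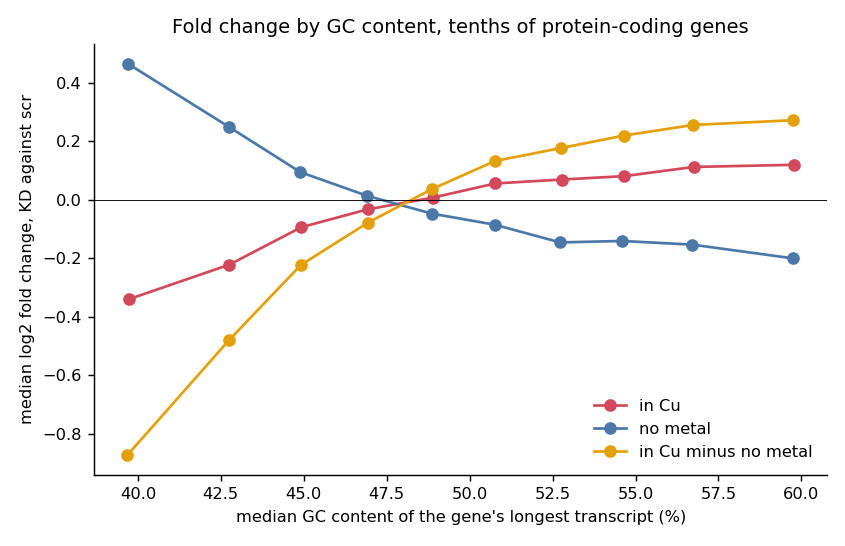
Median log2 fold change of KD against scr (y axis) in 10 equal bins of the protein-coding genes ordered by GC content (x axis, percent), in Cu, without metal, and for the difference between the 2. From the lowest to the highest bin the median ran from −0.34 to 0.12 in Cu, from 0.47 to −0.20 without metal, and from −0.87 to 0.27 for the difference.

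Both expressed metallothioneins were higher in KD in each medium. Mt1 stood at 252 and 318 CPM in KD against 85.1 and 61.3 CPM in scr in Cu, and at 275 and 220 CPM against 53.7 and 62.9 CPM without metal. Mt2 stood at 119 and 126 CPM against 28.2 and 24.9 CPM in Cu, and at 107 and 97.3 CPM against 17.7 and 20.1 CPM without metal. The KD libraries were above every scr library in both media for both genes. Mt1 rose by 1.97 ± 0.18 in Cu (adjusted p = 1.87e-05) and 2.07 ± 0.14 without metal, and Mt2 by 2.22 ± 0.13 (adjusted p = 1.25e-06) and 2.42 ± 0.12. Their differences between the media were −0.12 ± 0.25 and −0.22 ± 0.16. Mtf1, which encodes the factor that switches them on, was not called (−0.17 ± 0.13 in Cu, −0.25 ± 0.11 without metal), though with the offset it was lower without metal (−0.43). Mt1 and Mt2 are close copies of each other, so reads shared between them are not in these unique counts.

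Of the 19 metallothionein and zinc transport genes tested in both contrasts, 4 were higher and 1 lower in both media. In Cu and not without metal, 2 were called (10.5%, beside 7.56% of all genes), and 4 the reverse (21.1%, beside 23.2%). The median fold change was 0.01 in Cu and 0.09 without metal (−0.01 and 0.03 over all genes tested in both). Slc30a4, a zinc exporter of intracellular vesicles, stood at 102 and 134 CPM in KD against 254 and 293 CPM in scr in Cu, and at 178 and 192 CPM against 224 and 155 CPM without metal, so that the groups parted in Cu and overlapped without metal. Its fold change was −1.20 ± 0.15 in Cu (adjusted p = 2.09e-04) and −0.05 ± 0.15 without metal, but with the GC offset it was −1.02 and −0.49 and called in both. Slc39a11, a zinc importer family member, was higher in Cu (0.57 ± 0.16, against 0.25 ± 0.16 without metal) and in neither with the offset. Slc30a1, the plasma membrane zinc exporter and a textbook MTF1 target, was called without metal (16.2 and 16.1 CPM against 10.5 and 11.0 CPM, 0.57 ± 0.15) and gave 0.41 ± 0.16 in Cu, where KD (18.5 and 16.6 CPM) was above scr (13.9 and 12.7 CPM). Slc39a3 and Slc39a7, importers of zinc into the cytosol, were lower without metal (−0.74 ± 0.13 and −0.69 ± 0.12) and gave −0.30 ± 0.14 and −0.26 ± 0.18 in Cu. Slc30a7, a zinc transporter of the Golgi, was called higher without metal (0.38 ± 0.11, and −0.15 ± 0.13 in Cu), but was at −0.07 without metal with the offset, whereas Slc39a10 was called in neither (−0.35 ± 0.14 and 0.09 ± 0.12). Slc30a1 and Slc39a7 kept their class with the offset.

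Among 32 copper handling genes tested in both contrasts, 4 were higher and 3 lower in both media. In Cu and not without metal, 1 was higher and 1 lower (6.25%, beside 7.56% of all genes). In the reverse class, 2 were higher and 9 lower (34.4%, beside 23.2%). Atp7a, the Cu-exporting ATPase, stood at 29.6 and 32.7 CPM in KD against 43.6 and 45.8 CPM in scr in Cu, and at 41.6 and 48.6 CPM against 42.7 and 33.1 CPM without metal. It was lower in Cu (−0.51 ± 0.13, adjusted p = 0.0169) and gave 0.24 ± 0.14 without metal. The difference of Atp7a between the media was −0.77 ± 0.20 and was not called in edgeR's fit of the 8 libraries (adjusted p = 0.0769). Slc31a1, the high-affinity Cu importer, was called in neither (−0.15 ± 0.14 and −0.09 ± 0.11). Loxl4, a lysyl oxidase family member, was higher in Cu (0.47 ± 0.15, and 0.11 ± 0.14 without metal), not so with the offset.

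Atox1 and Ccs, both Cu chaperones, and Commd1 were lower in KD without metal and not called in Cu. Atox1, which hands Cu to the exporters, stood at 37.9 and 33.3 CPM in KD against 49.4 and 65.5 CPM in scr without metal (−0.71 ± 0.14), and at 44.8 and 43.6 CPM against 56.7 and 48.6 CPM in Cu (−0.24 ± 0.14, adjusted p = 0.238). Ccs, the chaperone of Sod1, gave −0.82 ± 0.16 without metal and −0.32 ± 0.17 in Cu. Commd1, a Cu homeostasis factor that binds the exporters, was at 20.6 and 20.8 CPM in KD against 30.8 and 35.4 CPM in scr without metal, and at 33.2 and 28.3 CPM against 26.3 and 30.8 CPM in Cu. That is −0.70 ± 0.13 without metal and 0.11 ± 0.15 in Cu, a difference of 0.78 ± 0.19. Cp, the Cu-carrying ferroxidase ceruloplasmin, ran the other way, with 38.2 and 41.5 CPM in KD against 23.1 and 19.6 CPM in scr without metal (0.88 ± 0.13) and −0.11 ± 0.14 in Cu. Xiap, an apoptosis inhibitor that also binds Cu, gave 0.72 ± 0.15 without metal and −0.47 ± 0.19 in Cu, but −0.03 without metal with the offset. Called in both media were Loxl2, a lysyl oxidase family member, which fell by 2.03 in Cu (SE 0.17) and by 1.65 without metal (SE 0.13), and Sod3, the secreted Cu and zinc superoxide dismutase, which rose to 58.8 and 54.1 CPM in Cu (2.02 ± 0.15) and by 1.76 ± 0.13 without metal. Atp7a, Ccs, Commd1 and Cp kept their class with the offset, and Atox1 was then called lower in both media.

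**Figure D3:**
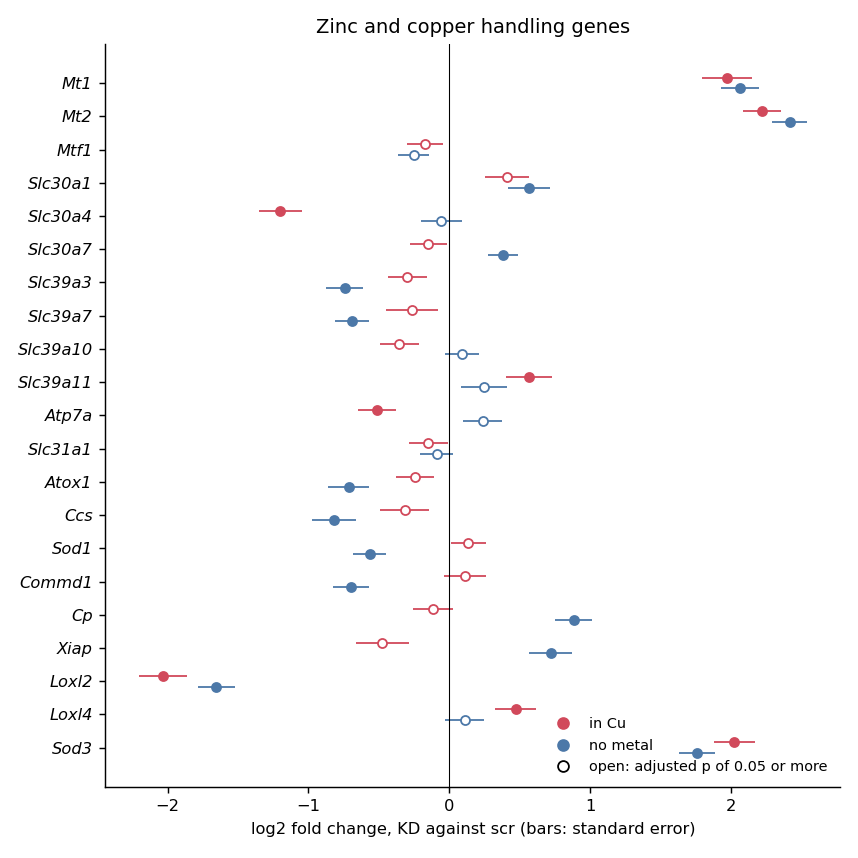
Log2 fold change of KD against scr (x axis, bars are the SE of the fit) for 21 zinc and copper handling genes (y axis) in Cu and without metal, filled where the adjusted p was under 0.05. Mt1, Mt2 and Sod3 lie near 2 in both media, Slc30a4 and Atp7a are filled in Cu but not without metal, and Atox1, Ccs, Sod1 and Commd1 the reverse.

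The NRF2 pathway held the largest share of genes called in Cu and not without metal among the 15 lists, 11 of 38 (28.9%, beside 7.56% of all genes), 8 of them higher. A further 11 were higher and 1 lower in both media. Another 7 were called without metal and not in Cu (1 higher, 6 lower, 18.4% beside 23.2% of all genes). The median fold change was 0.46 in Cu and 0.04 without metal. With the offset, 8 of the 38 were called in Cu and not without metal (7 higher, 21.1% beside 5.76% of all genes). Lists and members were chosen with earlier results of these data known, so these shares are a description. Cbr3, a carbonyl reductase, stood at 18.4 and 14.5 CPM in KD against 7.61 and 7.14 CPM in scr in Cu, and at 8.88 and 10.1 CPM against 7.07 and 11.3 CPM without metal. It was raised in Cu (1.17 ± 0.18, adjusted p = 8.61e-04), gave 0.01 ± 0.22 without metal, and differed by 1.13 ± 0.31. Tkt, the transketolase of the pentose phosphate pathway, was at 140 CPM in both KD replicates against 92.6 and 81.1 CPM in scr in Cu, and at 96.7 and 88.0 CPM against 84.0 and 93.8 CPM without metal (0.69 ± 0.12 and 0.04 ± 0.11). Abcc1, an exporter of glutathione conjugates that was named after its values were seen, stood at 304 and 284 CPM against 195 and 190 CPM in Cu (0.62 ± 0.12, and 0.11 ± 0.10 without metal). Slc7a11, the cystine importer, was lower in Cu (−0.83 ± 0.17, and −0.17 ± 0.17 without metal) and lower in both media with the offset. Taldo1 is the transaldolase of the pentose phosphate pathway, while Srxn1 repairs oxidised peroxiredoxins and Txnrd1 reduces thioredoxin. These 3 were lower without metal (−0.86 ± 0.13, −0.82 ± 0.11 and −0.71 ± 0.11) and gave −0.13 ± 0.13, −0.28 ± 0.12 and −0.22 ± 0.15 in Cu. Nqo1, a quinone reductase and classical NRF2 target, was raised in both media, from 20.6 and 19.2 CPM to 119 and 115 CPM in Cu (2.57 ± 0.13) and from 12.3 and 12.8 CPM to 59.6 and 57.0 CPM without metal (2.20 ± 0.12). Of the glutathione S-transferases, Gstm2 rose in both (2.60 ± 0.22 and 2.88 ± 0.19) and Gsta4 fell in both (−0.97 ± 0.15 and −0.91 ± 0.11). Nfe2l2, which encodes NRF2 and was also named after its values were seen, gave 0.16 ± 0.17 in Cu and was called without metal (0.37 ± 0.11). Cbr3, Tkt, Abcc1, Taldo1, Txnrd1 and Nfe2l2 kept their class with the offset, and Srxn1 was then lower in both.

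Of 34 antioxidant enzymes tested in both contrasts, 15 were called without metal and not in Cu (13 lower, 44.1% beside 23.2% of all genes). In Cu and not without metal, 3 were called (all higher, 8.82% beside 7.56%). In both media 5 were higher and 4 lower, and the median fold change was 0.01 in Cu and −0.31 without metal. Sod1, the cytosolic Cu and zinc superoxide dismutase, stood at 148 and 132 CPM in KD against 186 and 223 CPM in scr without metal, and at 204 and 189 CPM against 188 and 171 CPM in Cu. The groups parted without metal and lay next to each other in Cu, with fold changes of −0.57 ± 0.12 and 0.14 ± 0.12 and a difference of 0.68 ± 0.16. Aifm2, a quinone reductase that restrains lipid peroxidation, and Prdx6, a peroxiredoxin, followed it (−0.77 ± 0.14 and −0.40 ± 0.11 without metal, −0.18 ± 0.15 and 0.13 ± 0.12 in Cu). Prdx2, a cytosolic peroxiredoxin, was higher in Cu (336 and 316 CPM against 235 and 225 CPM, 0.51 ± 0.12) and gave −0.05 ± 0.12 without metal. Nnt and Gpx1, a mitochondrial NADPH source and a glutathione peroxidase, were higher in Cu (0.54 ± 0.12 and 0.52 ± 0.15, beside 0.24 ± 0.11 and 0.29 ± 0.12 without metal) and higher in both with the offset. Glrx, a glutaredoxin, rose in both (1.35 ± 0.17 and 1.06 ± 0.15). Sod1, Aifm2, Prdx6 and Prdx2 kept their class.

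**Figure D4:**
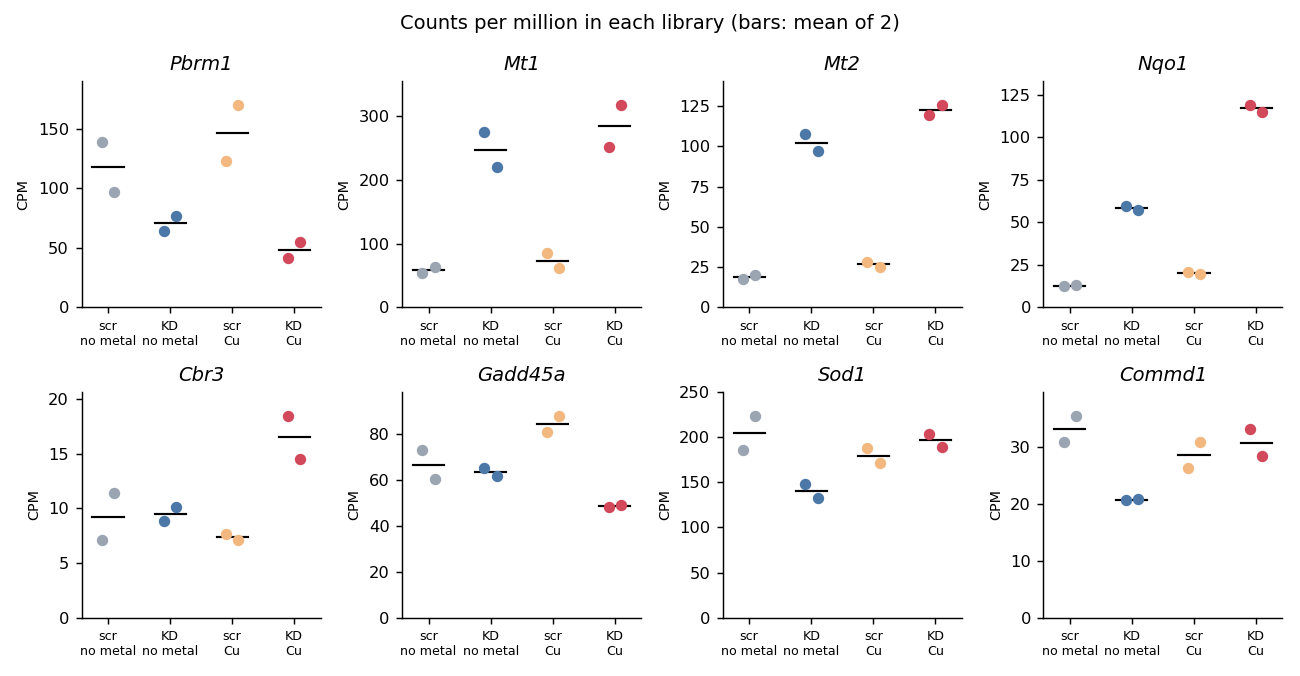
CPM (y axis) in each library of the 4 groups (x axis) for 8 genes, with points for the 2 replicates and bars for their mean. Mt1, Mt2 and Nqo1 stand higher in KD in both media, Cbr3 and Gadd45a part from scr in Cu, and Sod1 and Commd1 part from scr without metal.

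Heat shock genes, which encode the chaperones that fold and refold protein, were lower more often than higher in both media. Among 36 tested in both contrasts, 6 were called in Cu and not without metal, all lower (16.7%, beside 7.56% of all genes). The reverse held for 13 (11 lower, 36.1% beside 23.2%). In both media 1 was higher and 3 lower, and 2 were called in opposite directions. Hsp90aa1, the stress-inducible HSP90, stood at 150 and 200 CPM in KD against 255 and 542 CPM in scr in Cu, and at 235 and 346 CPM against 324 and 191 CPM without metal. Scr replicates in Cu were far apart, above both KD replicates, and the fold change was −1.18 ± 0.28 (adjusted p = 0.0109) beside 0.16 ± 0.22 without metal. Dnaja1, an HSP40 co-chaperone, and Ahsa2, an HSP90 co-chaperone family member, gave −0.53 ± 0.13 and −0.68 ± 0.17 in Cu and 0.36 ± 0.14 and 0.00 ± 0.13 without metal. Fkbp4 and Stub1, a further HSP90 co-chaperone and a chaperone-linked ubiquitin ligase, were lower without metal (−0.67 ± 0.12 and −0.52 ± 0.11) and gave −0.17 ± 0.14 and −0.02 ± 0.12 in Cu. Hspa4l, an HSP110 family member, was called higher without metal (0.83 ± 0.16, and 0.09 ± 0.23 in Cu), not so with the offset. The small heat shock proteins Hspb1 and Hspb8 fell in both media, by 1.55 (SE 0.16) and 1.34 (SE 0.13) in Cu and by 1.68 (SE 0.11) and 1.54 (SE 0.11) without metal. Hsf1, the factor that drives this list, was called in neither (0.17 ± 0.13 and 0.18 ± 0.10, named after its values were seen), but with the offset it was higher without metal (0.26, adjusted p = 0.0298). Hsp90aa1, Ahsa2 and Stub1 kept their class with the offset.

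The integrated stress response, in which kinases phosphorylate eIF2α and ATF4 target genes for amino acid supply are read, was the list with the lowest median, −0.36 in Cu and −0.63 without metal. Of 41 genes, 14 were lower and 2 higher in both media. In Cu and not without metal, 3 were called, all lower (7.32%, beside 7.56% of all genes). The reverse held for 14 (13 lower, 34.1% beside 23.2%). Atf4 itself, named after its values were seen, was called in neither (0.09 ± 0.16 and 0.05 ± 0.11). The largest fall in both was that of Aldh1l2, a mitochondrial folate enzyme, from 378 and 381 CPM to 89.3 and 90.2 CPM in Cu (−2.07 ± 0.12), with −1.73 ± 0.11 without metal. Eif2ak3, the eIF2α kinase PERK, fell from 114 and 110 CPM to 39.7 and 40.3 CPM in Cu (−1.47 ± 0.12), with −1.23 ± 0.11 without metal. Eif2ak2, the eIF2α kinase PKR, was lower in Cu (17.6 and 20.0 CPM against 26.1 and 33.5 CPM, −0.66 ± 0.16) and gave 0.38 ± 0.15 without metal, a difference of −1.06 ± 0.24. Eif2s1, which encodes eIF2α, was lower in Cu (−0.56 ± 0.12, and 0.02 ± 0.11 without metal), but with the offset it was called without metal and not in Cu. Phgdh and Psph, enzymes of serine synthesis, were lower without metal (−0.64 ± 0.12 and −1.09 ± 0.13) and gave 0.14 ± 0.12 and −0.36 ± 0.13 in Cu, Phgdh with 145 and 137 CPM against 194 and 239 CPM without metal and 238 and 216 CPM against 211 and 204 CPM in Cu. Nupr1, a stress-induced nuclear protein, was higher without metal (26.4 and 27.4 CPM against 17.6 and 10.9 CPM, 0.91 ± 0.19) and gave 0.10 ± 0.16 in Cu. Eif2ak2, Phgdh and Nupr1 kept their class with the offset.

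The unfolded protein response of the endoplasmic reticulum held no gene called in Cu and not without metal among 30, beside 7.56% of all genes. It held 7 of the reverse class (2 higher, 5 lower, 23.3% beside 23.2% of all genes). A further 1 gene was higher and 2 lower in both, 2 were called in opposite directions and 18 in neither (7525 of all 14660 genes). With the offset, the reverse class held 11 of the 30 (2 higher, 9 lower, 36.7% beside 19.9% of all genes), the largest share of the 15 lists. In Cu and not without metal, 1 was then called (3.33% beside 5.76%). Wfs1, a membrane protein of the endoplasmic reticulum, fell in both (−0.91 ± 0.14 and −0.88 ± 0.11), and Herpud1, which serves degradation of misfolded protein, rose in both (0.67 ± 0.14 and 0.40 ± 0.12). Derl1 and Sec61b, of the retrotranslocation and translocation machinery, were lower without metal (−0.58 ± 0.11 and −0.48 ± 0.13) and gave −0.29 ± 0.12 and −0.10 ± 0.15 in Cu, and Dnajc3, a chaperone, was higher without metal (0.52 ± 0.13, and −0.14 ± 0.13 in Cu). None of these 3 kept its class with the offset. Across the lists, 6 genes were called in opposite directions, all named after their values were seen except Nbn. Chordc1, Dnajb4, Dnajb9, Hsp90b1 and Nbn were lower in Cu (−0.53 to −0.64) and higher without metal (0.47 to 0.70), and H2ax the reverse (0.46 and −0.39). With the offset, Dnajb4, H2ax, Hsp90b1 and Nbn were called in Cu and not without metal, and Chordc1 and Dnajb9 in neither.

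In the p53 pathway, 33 genes were tested in both contrasts, of which 5 were higher and 7 lower in both media. In Cu and not without metal, 4 were called (1 higher, 3 lower, 12.1% beside 7.56% of all genes). The reverse held for 11 (5 higher, 6 lower, 33.3% beside 23.2%), but for 4 with the offset (3 higher, 1 lower, 12.1% beside 19.9%). Trp53, named after its values were seen, was called in neither (0.31 ± 0.16 in Cu, 0.08 ± 0.13 without metal). Gadd45a, a growth arrest gene, was at 48.5 and 49.0 CPM in KD against 80.9 and 88.0 CPM in scr in Cu, and at 65.1 and 61.8 CPM against 73.1 and 60.3 CPM without metal. It was lower in Cu (−0.79 ± 0.12, adjusted p = 9.49e-04), gave −0.09 ± 0.12 without metal, and differed by −0.72 ± 0.16. Ccng1, cyclin G1, was at 167 and 198 CPM against 378 and 359 CPM in Cu (−1.01 ± 0.13) and gave −0.08 ± 0.13 without metal, but was lower in both media with the offset. Phlda3, an inhibitor of AKT signalling, was higher in Cu (0.78 ± 0.12, and 0.15 ± 0.12 without metal) and higher in both with the offset. Pmaip1, which encodes the death protein NOXA, was higher without metal (3.98 and 4.74 CPM against 1.92 and 0.673 CPM, 1.79 ± 0.40) and gave 0.59 ± 0.31 in Cu. Rrm2b and Trp53inp1, a ribonucleotide reductase subunit and an autophagy-linked p53 target, were higher without metal (0.69 ± 0.18 and 0.64 ± 0.15) and gave −0.48 ± 0.24 and −0.43 ± 0.19 in Cu, both uncalled with the offset. Eda2r, a TNF receptor family member, fell in both media (−1.78 ± 0.13 and −1.09 ± 0.11), and Fas, the death receptor, rose in both from a low level (1.67 and 0.751 CPM to 3.13 and 3.26 CPM in Cu, and 1.96 ± 0.31 without metal). Gadd45a and Pmaip1 kept their class with the offset.

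Of 47 DNA damage response genes, 25 were called in neither medium, a share near that of all genes (7525 of 14660). A further 1 was lower in both and 2 were called in opposite directions. In Cu and not without metal, 2 were higher and 3 lower (10.6%, beside 7.56% of all genes). In the reverse class, 9 were higher and 5 lower (29.8%, beside 23.2%). Lig4 and Rad50, of end joining and break sensing, were lower in Cu (−0.95 ± 0.19 and −0.55 ± 0.16) and gave 0.14 ± 0.16 and 0.33 ± 0.14 without metal. Lig4 stood at 7.75 and 10.3 CPM in KD against 15.7 and 19.3 CPM in scr in Cu. Atm and Atr, the apical damage kinases, and Xrcc4, the partner of Lig4, were higher without metal (0.81 ± 0.17, 0.71 ± 0.17 and 0.95 ± 0.23) and gave −0.30 ± 0.22, −0.48 ± 0.26 and −0.69 ± 0.33 in Cu. Nbn, the partner of Rad50, gave −0.53 ± 0.16 in Cu and 0.47 ± 0.16 without metal, and Chek2, a checkpoint kinase, fell in both (−0.51 ± 0.15 and −0.71 ± 0.14). Lig4, Rad50, Atm and Xrcc4 kept their class with the offset, and Atr did not. The median GC content over the stress genes higher without metal and not called in Cu, to which Atm, Atr and Xrcc4 belong, was 43.3%.

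Immediate early genes, the fast transcription factors of growth factor and stress signalling, were mostly called alike in the 2 media. Of 37 genes, 15 were higher and 7 lower in both. In Cu and not without metal, 1 was called (2.7%, beside 7.56% of all genes), and 4 the reverse (10.8%, beside 23.2%). Egr2 rose from 1.61 and 1.19 CPM to 17.6 and 14.4 CPM in Cu (3.57 ± 0.24) and by 4.66 ± 0.25 without metal, and Egr3, of the same zinc-finger family, by 2.81 ± 0.23 and 3.19 ± 0.19. Zfp36l1, which binds and destabilises AU-rich mRNAs, stood at 76.8 and 74.2 CPM in KD against 33.4 and 28.8 CPM in scr without metal (1.26 ± 0.12) and at 46.4 and 48.0 CPM against 40.2 and 30.5 CPM in Cu (0.43 ± 0.16, adjusted p = 0.0694), a difference of −0.86 ± 0.20. Jun and Ier5 were lower without metal (−0.74 ± 0.10 and −0.80 ± 0.11) and gave −0.26 ± 0.12 and −0.31 ± 0.13 in Cu. Rhob, a small GTPase, was higher in Cu (0.41 ± 0.13, and −0.07 ± 0.11 without metal). Zfp36l1 kept its class with the offset, Jun and Ier5 were then lower in both media, and Rhob was called in neither.

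Of 31 iron and heme genes, 6 were higher and 4 lower in Cu, beside 14.2% and 10.7% of all genes tested there. Tfrc, the receptor for iron uptake, and Slc40a1, the iron exporter, were lower (170 and 178 CPM against 227 and 311 CPM, −0.62 ± 0.15, and 14.2 and 13.1 CPM against 21.6 and 21.7 CPM, −0.65 ± 0.15), while Ftl1, the ferritin light chain that stores iron, was higher (2090 and 1956 CPM against 1373 and 1206 CPM, 0.66 ± 0.17). Without metal they gave 0.24 ± 0.11, 0.07 ± 0.14 and 0.05 ± 0.13 and none was called. Ftl1 has near-identical copies elsewhere in the genome, so unique reads may miss part of its signal. In all, 4 were called in Cu and not without metal (2 higher, 2 lower, 12.9% beside 7.56% of all genes). The reverse held for 8 (2 higher, 6 lower, 25.8% beside 23.2%), and 4 were higher and 2 lower in both. Nfs1, which supplies sulphur for iron-sulphur clusters, was lower without metal (−0.83 ± 0.12, and −0.40 ± 0.13 in Cu), and Flvcr1 and Ncoa4, a heme exporter and the receptor for ferritin breakdown, were higher (0.48 ± 0.15 and 0.51 ± 0.13, beside 0.14 ± 0.15 and 0.21 ± 0.14 in Cu). Slc48a1, a heme transporter, rose from 83.9 and 63.4 CPM to 251 and 265 CPM in Cu (1.82 ± 0.15) and by 1.31 ± 0.12 without metal, and Blvrb, a biliverdin reductase, by 1.41 ± 0.18 and 0.53 ± 0.16. Slc40a1, Flvcr1 and Ncoa4 kept their class with the offset, and Tfrc and Ftl1 were called in both media, Tfrc then lower without metal as well (−0.25).

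Protein lipoylation, the modification through which excess Cu aggregates mitochondrial enzymes, was represented by 14 genes tested in both contrasts. Of these, 1 was lower in Cu and not called without metal (7.14%, beside 7.56% of all genes). Dld, the lipoamide dehydrogenase, stood at 45.2 and 49.1 CPM in KD against 67.1 and 109 CPM in scr in Cu (−0.89 ± 0.20, and 0.14 ± 0.15 without metal) and kept its class with the offset. A further 5 genes were called without metal and not in Cu (4 lower, 35.7% beside 23.2% of all genes). Among them were Gcsh and Ogdh (−0.66 ± 0.13 and −0.50 ± 0.12, beside −0.28 ± 0.14 and −0.26 ± 0.15 in Cu). Pdhx was lower in both (−0.47 ± 0.14 and −0.73 ± 0.12). Gcsh kept its class with the offset, and Ogdh was then lower in both.

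Of 35 hypoxia genes, 3 were called in Cu and not without metal, all higher (8.57%, beside 7.56% of all genes). The reverse held for 11 (2 higher, 9 lower, 31.4% beside 23.2%), with 5 higher and 6 lower in both. Slc16a3, a lactate exporter, Pfkfb4, a regulator of glycolysis, and Pdk3, a pyruvate dehydrogenase kinase, were higher in Cu (0.59 ± 0.17, 0.67 ± 0.19 and 0.57 ± 0.14) and gave −0.18 ± 0.18, 0.10 ± 0.19 and 0.28 ± 0.16 without metal. Pgk1 and Pfkl, enzymes of glycolysis, were lower without metal (139 and 138 CPM against 242 and 329 CPM, −1.06 ± 0.14, and −0.68 ± 0.12) and gave −0.30 ± 0.13 and −0.04 ± 0.14 in Cu. Hif1a, the oxygen-regulated factor, was higher without metal (0.62 ± 0.14, and −0.30 ± 0.13 in Cu). Egln3, a prolyl hydroxylase that marks HIF1α for decay, rose in both media (1.54 ± 0.15 and 1.15 ± 0.12), and Slc2a1, the glucose transporter GLUT1, fell in both (−1.08 ± 0.15 and −1.11 ± 0.11). Pdk3 and Pfkl kept their class with the offset, Pgk1 was then lower in both, and Slc16a3, Pfkfb4 and Hif1a were called in neither.

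**Figure D5:**
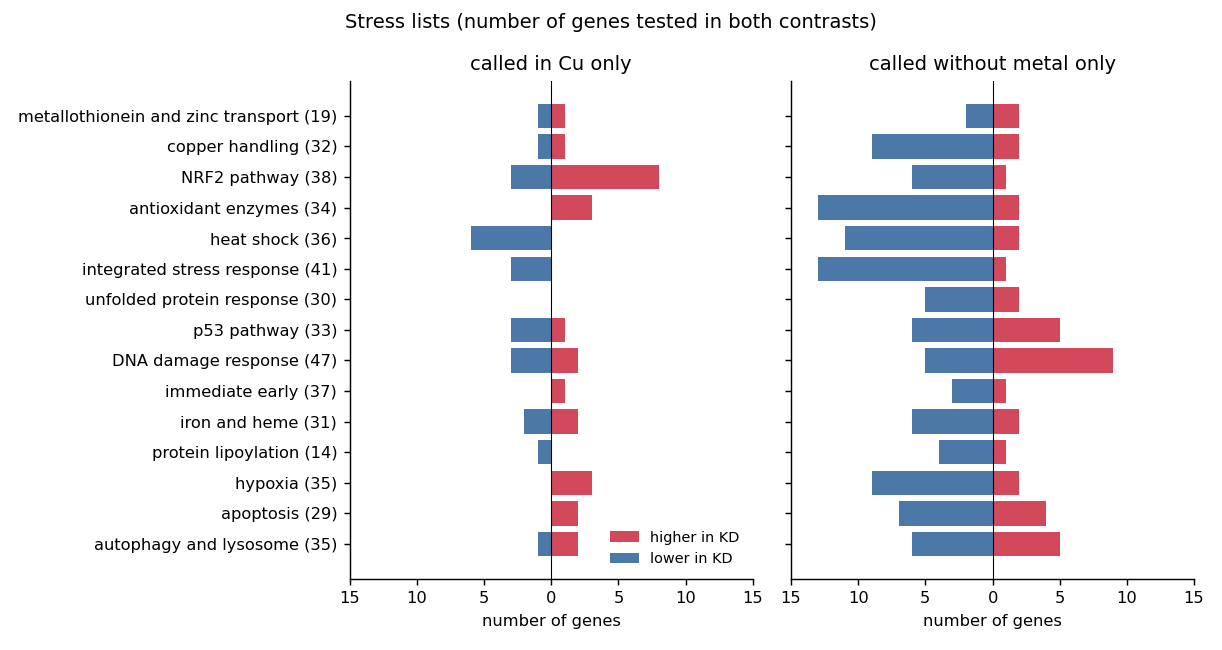
Number of stress genes (x axis, higher in KD to the right, lower to the left) in each of the 15 lists (y axis, with the number tested in both contrasts) called in Cu but not without metal (left panel) and called without metal but not in Cu (right panel). The NRF2 pathway stands out in the left panel with 8 higher and 3 lower. In the right panel the antioxidant and integrated stress response lists have 13 lower each, followed by heat shock with 11. With the GC content and length offset, heat shock had 11 lower in that class and the unfolded protein response 9. The antioxidant, integrated stress response and copper handling lists then had 8 each.

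Among 29 apoptosis genes, 2 were called in Cu and not without metal, both higher (6.9%, beside 7.56% of all genes). The reverse held for 11 (4 higher, 7 lower, 37.9% beside 23.2%). Bok, a BCL2 family killer protein, stood at 72.8 and 52.5 CPM in KD against 31.9 and 35.8 CPM in scr in Cu (0.89 ± 0.17) and gave −0.03 ± 0.15 without metal. Tnfrsf1a, the TNF receptor, was higher in Cu (0.46 ± 0.12, and 0.11 ± 0.12 without metal). Tnfrsf12a, the TWEAK receptor, was lower without metal (−0.65 ± 0.13, and 0.02 ± 0.14 in Cu), and Casp12, an inflammatory-type caspase, was higher (0.75 ± 0.25, and −0.58 ± 0.32 in Cu). Bcl2l1, the survival protein BCL-XL, rose in both (0.83 ± 0.12 and 0.38 ± 0.10). Bok and Tnfrsf12a kept their class with the offset. Of 35 autophagy and lysosome genes, 3 were called in Cu and not without metal (2 higher, 1 lower, 8.57% beside 7.56% of all genes). The reverse held for 11 (5 higher, 6 lower, 31.4% beside 23.2%). Tfeb, the master factor of lysosomal genes, and Atg9a, the scramblase of autophagy, were higher in Cu (0.60 ± 0.17 and 0.59 ± 0.15, beside 0.16 ± 0.16 and 0.28 ± 0.12 without metal) and Lamp2, a lysosomal membrane protein, lower (−0.37 ± 0.12, and 0.14 ± 0.11). Rb1cc1 and Atg3 were higher without metal (0.55 ± 0.19 and 0.48 ± 0.16, beside −0.83 ± 0.29 and −0.41 ± 0.15 in Cu) and Gabarapl2 lower (−1.12 ± 0.16, and −0.52 ± 0.20). Map1lc3a, an LC3 protein, fell in both media (−1.01 ± 0.14 and −1.60 ± 0.16) and Wipi1 rose in both (0.76 ± 0.13 and 0.68 ± 0.11). Gabarapl2 kept its class with the offset, and Rb1cc1 was then called in Cu and not without metal.

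The offset and the fit of all 24 libraries were combined, a choice made after the values were seen. With both, the difference between the media was called for 373 of 16524 genes (2.26%). Of the 95 stress genes that kept their class with and without the offset in the separate contrasts, it was called there for 12 (12.6%), beside 191 of 2230 genes (8.57%) selected alike from all genes. As these genes were selected by the contrasts that the difference compares, the share is a description. Abcc1, Cbr3 and Tkt were higher and Eif2ak2 and Gadd45a lower in KD in Cu and not called without metal. Nupr1 and Zfp36l1 were higher and Commd1, Cycs, Phgdh, Sod1 and Sod2 lower without metal and not called in Cu. Cycs, which encodes cytochrome c, gave −0.98 ± 0.14 without metal and −0.56 ± 0.20 in Cu, and Sod2, the mitochondrial superoxide dismutase, −0.51 ± 0.11 and −0.24 ± 0.12. Both were named after their values were seen, and for them the difference was called in the 24-library fit only with the offset (adjusted p = 0.199 for each without it). By DESeq2 they did not pass either, and in edgeR's fit of the 8 libraries none of the 12 passed for the difference (adjusted p from 0.0748). Commd1 and Zfp36l1 had the smallest adjusted p of the 12 in the 24-library fit with the offset, 0.00827 and 0.00824.

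The largest differences in Cu lay outside the stress lists and in the same direction without metal. Col6a2, a collagen VI chain, rose from 0.576 and 0.265 CPM to 83.6 and 74.9 CPM (7.78 ± 0.26), Svep1, an adhesion protein, from 0.346 and 0.354 CPM to 56.5 and 54.4 CPM (7.30 ± 0.21), and Ptprf, a receptor phosphatase, from 1.84 and 1.24 CPM to 107 and 102 CPM (6.17 ± 0.20). Without metal the fold changes of Col6a2 and Ptprf were 7.81 ± 0.23 and 5.59 ± 0.18. Lama4, a laminin chain, had 682 and 753 counts in KD against 1 and 3 in scr in Cu, and Spon2, Slc1a6, Col8a2 and Plac8 had 95 to 352 counts in KD against 1 to 5 in scr, too few for a fold. Cmah, an enzyme of sialic acid synthesis, fell from 75.6 and 97.9 CPM to 1.04 CPM in both replicates (−6.37 ± 0.21), Nog, the BMP antagonist noggin, by 4.69 (SE 0.29) and Mmp10, a matrix metalloprotease, by 4.59 (SE 0.20). These fell by 5.82, 4.01 and 4.52 without metal. Mmp12, Xirp2, Colec10, Stk32b and Themis had 0 to 9 counts in each KD library in Cu against 56 to 4439 in scr. KD and scr did not overlap for any of these 16 genes in Cu, as the rule that named them required.

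Markers of cell identity differed between KD and scr in both media, and the genes named here were picked from their lists after the values were seen. The 12 myoblast markers summed to 2932 to 3073 CPM in KD against 4166 to 4601 CPM in scr in Cu, and to 2977 to 3086 CPM against 4513 to 4944 CPM without metal. Des and Itga7 carried most of the gap in Cu (means of 1081 against 2019 CPM and 482 against 936 CPM), while other members rose. Myod1, the myoblast factor, was present in every library (67.2 to 127 CPM) and called in neither medium, though with the offset it was called without metal. Of 11 myoblast markers tested in both contrasts, 4 were higher and 4 lower in Cu, and 3 were higher and 5 lower without metal. Over all genes tested, 14.2% were higher and 10.7% lower in Cu, and 21.7% and 19.3% without metal. Myf5, a myogenic factor, fell (35.2 and 45.5 CPM against 165 and 168 CPM in Cu, −2.03 ± 0.15), as did Des, Itga7 and Ncam1 (−0.89 ± 0.17, −0.95 ± 0.15 and −0.72 ± 0.13). Vcam1, an adhesion receptor, rose in Cu (2.95 ± 0.17), as did Pax7, the satellite cell factor, Megf10 and Notch1 (1.52 ± 0.33, 0.85 ± 0.12 and 0.44 ± 0.12). Of 12 fibroblast and adipogenic markers, 5 of 6 tested in both contrasts were higher in both media, beside 11.1% of all genes. The list summed to 763 to 810 CPM in KD against 90.7 to 106 CPM in scr in Cu, and to 822 to 841 CPM against 112 to 114 CPM without metal. Pdgfrb and Col1a1 carried most of it (351 and 364 CPM against 44.4 and 36.9 CPM, and 385 and 327 CPM against 32.7 and 33.3 CPM in Cu), Cebpa rose by 3.83 ± 0.19, and Thy1, Lum, Adipoq and Plin1 were at 0 in all Cu libraries. Of 18 muscle differentiation markers, 12 were higher and 1 lower in KD in each medium, with a median fold change of 1.37 in Cu and 1.36 without metal. Myog, the differentiation factor, rose from 6.28 and 4.07 CPM to 23.2 and 25.2 CPM in Cu (2.27 ± 0.21), and Myh3, embryonic myosin, by 2.30 ± 0.16. The member that fell was Ttn, the giant sarcomere protein (400.0 and 579.9 CPM against 2747 and 5337 CPM in Cu). Endothelial and immune markers summed to at most 6.80 CPM in any of the 8 libraries. The part of these marker differences in the stress gene results was not tested.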

How the data were processed

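Whole-gene read counts were measured in 8 libraries used here, of 24 in the series. The authors deposited raw counts per gene; per their methods and processing notes, reads were aligned with STAR to mm10, unique reads were counted per gene with featureCounts, and DESeq2 was run. Their deposited comparison tables (fold changes and p-values) were not used. From the counts, edgeR 4.0.16 (quasi-likelihood test, TMM, default expression filter, Benjamini-Hochberg adjusted p under 0.05, R 4.3.3) was fitted to the 4 libraries of each contrast and to all 8 for the difference between contrasts. The test was checked on simulated counts. DESeq2 1.42.0, other filters and scalings, thinning, a replicate block, wider fits and a GC content and length offset in edgeR (splines with 5 degrees of freedom) were alternatives. Totals of 16520069 to 44746359 counts limit low genes. Same-group replicates differed by 17.65 to 37.25 times counting noise (chi-square per degree of freedom), so none was a duplicate. The methods call the replicates biologically independent.

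Named genes were PBAF subunits, 11 metal and detoxification genes, for each list up to 3 genes called in each single medium with the largest difference between contrasts and up to 2 called in both with the largest change in Cu (mean of at least 50 normalized counts), and the 8 largest rises and 8 largest falls in Cu. Members and lists were chosen with earlier results of these data known. Some genes that this rule names are not reported here.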

Additional observations from a re-analysis of the deposited data

How the results depend on the processing

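In Cu the 3818 calls became 1518 with a fold change of at least 1.5, 6693 with the offset in the 24-library fit, and 1727 to 4660 on leaving out each replicate in turn, lowest without KD replicate 1 and 2. Without metal the 6087 calls became 1842 with the fold minimum and 3025 to 7377 on leaving out a replicate. The 0 calls for the difference became 1290 by DESeq2, 1991 over genes with at least 1 count, 302 over genes averaging at least 1 normalized count, 2116 in the 24-library fit, 373 there with the offset, and 0 to 1604 on leaving out a replicate. The 46 stress genes called in Cu and not without metal became 76 in a fit of the 8 libraries, 81 in that of 24, 11 with the fold minimum and 8 to 78 on leaving out a replicate. The 140 of the reverse class became 84 with the replicate block and the offset, 31 with the fold minimum, 71 with the offset in the 24-library fit and 59 to 183 on leaving out a replicate. The cause of these moves was not tested. Nothing in the labels says that replicate numbers mark a shared day or batch. Deviations of same-numbered samples correlated at 0.16 between KD and scr in Cu, 0.16 between KD in the 2 media and 0.45 between scr in Cu and KD without metal, but at −0.16 to −0.22 between scr without metal and the other 3 groups, so the numbers were not taken as pairs, and whether scr without metal is numbered in another order was not tested. The replicate block gave 4116 calls in Cu, 5237 without metal, 0 for the difference, and 58 and 107 stress genes in the 2 classes. Crossing the numbers without metal, chosen after seeing the data, gave 8018 calls and 34 and 179 stress genes. With 2 libraries a group, small differences are below what can be called at this depth of replication. A lone library left in a group was assumed to vary like the others. The remaining sign changes were of single genes, in log2 units. With the GC content and length offset, the sign turned in Cu Cp 0.0778, Nupr1 −0.00312, Phgdh −0.0507, Tnfrsf12a −0.12, Atf4 −0.0827, Lars2 −0.0905, and without metal Slc39a10 −0.19, Slc30a7 −0.0657, Xiap −0.0315, Prdx2 0.0810, Hsp90aa1 −0.0128, Dnaja1 −0.0912, Ahsa2 −0.19, Eif2s1 −0.32, Gadd45a 0.0806, Lig4 −0.24, Rhob 0.0266, Tfrc −0.25, Slc40a1 −0.24, Dld −0.19, Bok 0.16, Lamp2 −0.32, Rb1cc1 −0.0967, Abcc1 −0.0158, Chordc1 −0.0809, and for the difference Slc30a1 0.0248, Atox1 −0.0325, Slc30a7 0.0412, Slc7a11 0.13, Gpx1 −0.12, Hspa4l 0.17, Sec61b −0.0548, Lamp2 0.14. With that offset and the replicate block, the sign turned in Cu Cp 0.0774, Nupr1 −0.00220, Phgdh −0.0503, Tnfrsf12a −0.12, Atf4 −0.0810, Lars2 −0.0917, and without metal Slc39a10 −0.19, Slc30a7 −0.0653, Xiap −0.0351, Prdx2 0.0837, Hsp90aa1 −0.00120, Dnaja1 −0.0902, Ahsa2 −0.19, Eif2s1 −0.33, Gadd45a 0.0882, Lig4 −0.24, Rhob 0.0270, Tfrc −0.25, Slc40a1 −0.24, Dld −0.19, Bok 0.17, Lamp2 −0.33, Rb1cc1 −0.0970, Abcc1 −0.0140, Chordc1 −0.0815, and for the difference Slc30a1 0.0244, Atox1 −0.0326, Slc30a7 0.0466, Slc7a11 0.13, Gpx1 −0.12, Hspa4l 0.18, Sec61b −0.0531, Lamp2 0.18. With the offset in the 24-library fit (added after seeing the data), the sign turned in Cu Cp 0.0626, Nupr1 −0.0331, Phgdh −0.0739, Tnfrsf12a −0.13, Atf4 −0.11, Hsf1 −0.0209, Lars2 −0.11, and without metal Slc39a10 −0.20, Atp7a −0.00178, Slc30a7 −0.0686, Xiap −0.0795, Prdx2 0.0614, Hsp90aa1 −0.0233, Dnaja1 −0.10, Ahsa2 −0.20, Eif2s1 −0.34, Gadd45a 0.0583, Lig4 −0.25, Rhob 0.00390, Tfrc −0.27, Slc40a1 −0.25, Dld −0.21, Bok 0.14, Lamp2 −0.36, Rb1cc1 −0.12, Abcc1 −0.0329, Chordc1 −0.14, and for the difference Slc30a1 0.0264, Atox1 −0.0151, Slc30a7 0.0395, Slc7a11 0.13, Gpx1 −0.11, Hspa4l 0.17, Sec61b −0.0428, Lamp2 0.15. In the 24-library fit, the sign turned without metal Cbr3 −0.0103, Ahsa2 −0.0131, Eif2s1 −0.000608. By DESeq2, the sign turned without metal Ahsa2 −0.0104. With RLE size factors, the sign turned without metal Cbr3 −0.00355, Ahsa2 −0.0100. Thinned to the smallest total, the sign turned in Cu Stub1 0.00543, and without metal Cbr3 −0.0185. Leaving out each replicate in turn turned the sign of these log2 fold changes, given as lowest to highest value, in Cu Slc31a1 −0.30 to 0.00676, Commd1 −0.00868 to 0.22, Hspa4l −0.30 to 0.63, Stub1 −0.0947 to 0.0489, Sec61b −0.29 to 0.0580, Atr −0.86 to 0.0806, Atm −0.61 to 0.0976, Pfkl −0.21 to 0.10, Casp12 −0.98 to 0.0759, Tnfrsf12a −0.13 to 0.15, Atf4 −0.0982 to 0.29, Nfe2l2 −0.0740 to 0.43, Lars2 −0.0837 to 0.13, and without metal Slc39a10 −0.0195 to 0.18, Slc30a4 −0.30 to 0.21, Loxl4 −0.0790 to 0.22, Cbr3 −0.29 to 0.41, Slc7a11 −0.38 to 0.0268, Tkt −0.0820 to 0.12, Prdx2 −0.20 to 0.0871, Hsp90aa1 −0.18 to 0.57, Ahsa2 −0.14 to 0.14, Eif2s1 −0.0821 to 0.0994, Ccng1 −0.28 to 0.13, Gadd45a −0.22 to 0.0362, Lig4 −0.0127 to 0.25, Rhob −0.19 to 0.0395, Ftl1 −0.0889 to 0.19, Dld −0.0467 to 0.33, Slc16a3 −0.36 to 0.0213, Pfkfb4 −0.12 to 0.37, Pdk3 −0.0215 to 0.47, Bok −0.25 to 0.20, Tnfrsf1a −0.0506 to 0.23, Atf4 −0.0739 to 0.10, Trp53 −0.13 to 0.21, Myod1 −0.0310 to 0.17, and for the difference Nfe2l2 −0.47 to 0.0602.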

Other observations

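Of 21 other SWI/SNF subunits tested in both contrasts, 2 were higher in KD in both media, beside 11.1% of all genes. A further 5 were called without metal and not in Cu (1 higher, 4 lower, 23.8% beside 23.2% of all genes). Smarca2, the BRM ATPase, was called higher in Cu with a log2 fold change of 1.33, and Smarcd1, a core subunit, with 0.58. The 8 epithelial and neural markers summed to 13.5 to 13.9 CPM in KD against 66.6 to 71.9 CPM in scr in Cu. Of these 8, 6 stayed under 1 CPM, so few members carried the sum. Only 2 were tested in both contrasts, of which 1 was lower in both media and 1 called in neither. Smarca2 and Smarcd1 were named after their values were seen.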
